A study of Mus musculus with 6 samples.

Results

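The ATP-binding cassette (ABC) family was examined in 393P cells carrying a short hairpin RNA (shRNA) against MKK4. It was followed through 32 listed mouse genes that encode ABC transporters, ABC channels and soluble ABC proteins. The members were taken by name: a gene was included when a probe set of the array was annotated to it alone, and where several probe sets met this, the one with the highest mean over the 6 arrays was kept. All 32 were found, out of 18193 genes measured in this way. They carried 73 probe sets, 11 genes with 1 and 21 with several.

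393P is a mass population of mouse cells from a lung primary tumour that arose in an animal of the genotype p53R172H∆g/+ K-rasLA1/+, so both groups share these alleles. The 3 shRNA cultures (393P-shZ) carried a vector expressing a short hairpin RNA against mouse MKK4, and the 3 control cultures (393P-scr) carried a scrambled control vector. The labels give both retroviral infection and Lipofectamine transfection as the route of delivery, describe no clones, and name triplicate cultures. The p-values therefore reflect variation among cultures of 1 population per vector, and in bulk RNA fewer expressing cells and less RNA per cell cannot be told apart. RNA was read on 1-colour Affymetrix arrays. The comparison addresses how transcript levels differ with an shRNA against MKK4, a kinase that activates JNK and p38. With 1 population per vector, effects of lowered MKK4, of the hairpin itself and of the population cannot be told apart.

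ABC proteins share a nucleotide-binding domain that hydrolyses ATP. In most of the family it powers the movement of lipids, drugs, conjugates, peptides or metal complexes across a membrane, while CFTR uses it to gate a chloride channel, the sulphonylurea receptors to regulate potassium channels, and the E and F subfamilies to work on ribosomes. In tumour cells the family is best known for P-glycoprotein, MRP1 and BCRP (ABCB1, ABCC1 and ABCG2 in humans), which export chemotherapy drugs. Mice have a pair of P-glycoprotein genes, Abcb1a and Abcb1b, where humans have 1.

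Facts of the series as a whole bear on these genes as follows. The 6 arrays had medians of 92.0 to 95.76 intensity units and correlated at 0.991 to 0.996 across genes. The trpnX control probe sets, which detect a bacterial transcript, read up to 39.47 units; a gene whose mean lay no higher than this in both groups is called dim here, and no fold is given for it. Map2k4, the target, gave 240.1, 294.9 and 287.4 units in the shRNA cultures and 700.3, 638.2 and 597.4 units in the control cultures, a log2 change of -1.21 (SE 0.079, limma adjusted p = 0.000126; exact two-sided permutation p = 0.1, the smallest that 3 against 3 allows). Map2k4 RNA was thus lowered to 0.43 of the control level rather than lost, and MKK4 protein was not measured on the arrays. The 7 epithelial markers examined were above the dim level in both groups, with a summed signal of 46572 to 47642 units in shRNA cultures and 47199 to 47738 units in control cultures. Of these, Krt19 rose and Epcam, Cdh1 and Cldn7 fell, and their part in the results was not tested. Of the 4 lung markers Nkx2-1 and Scgb1a1 were dim, while Sftpc and Sftpb were not, Sftpb averaging 266 units in either group. Of the 4 leukocyte markers measured Cd3e and Lyz2 were dim, and Ptprc and Cd68 were not (Cd68 averaged 138 units in shRNA cultures and 146 units in control cultures). Of the 4 endothelial markers Pecam1 and Tie1 were dim, and Cdh5 and Kdr were not (Kdr averaged 345 units in shRNA cultures and 394 units in control cultures). Of the 6 fibroblast markers Dcn and Thy1 were dim, and Col1a1, Col1a2, Col3a1 and Pdgfra were not (Col1a2 averaged 188 units in shRNA cultures and 205 units in control cultures). No marker of those 4 lists passed the test, and these values do not show that such cells were absent.

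The exporters Abcb1a, Abcb1b and Abcc4 were lower in the shRNA cultures, and the lipid transporter gene Abca5 was higher; the remaining 28 members did not pass the test. The 4 calls are 12.5% of 32 members, close to the 11.8% of all genes that were called (2143 of 18193), so the count alone sets the family apart from no other genes. Without the adjustment, 10 of 32 members had a limma p under 0.05, against 24.1% of all genes. By direction, 1 member rose where 6.39% of all genes did, and 3 fell where 5.39% did. Among genes that were not dim, 4 of 28 members (14.3%) and 15.0% of all genes were called. The median log2 change was -0.04 over the members and -0.01 over all genes, with 13 members above 0, 18 below and 1, Abca4, at the floor of 1 unit on every array. Called here means a Benjamini-Hochberg adjusted p under 0.05 from limma over all 18193 genes; the log2 change is the shRNA mean minus the control mean of log2(intensity + 16).

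**Figure D1:**
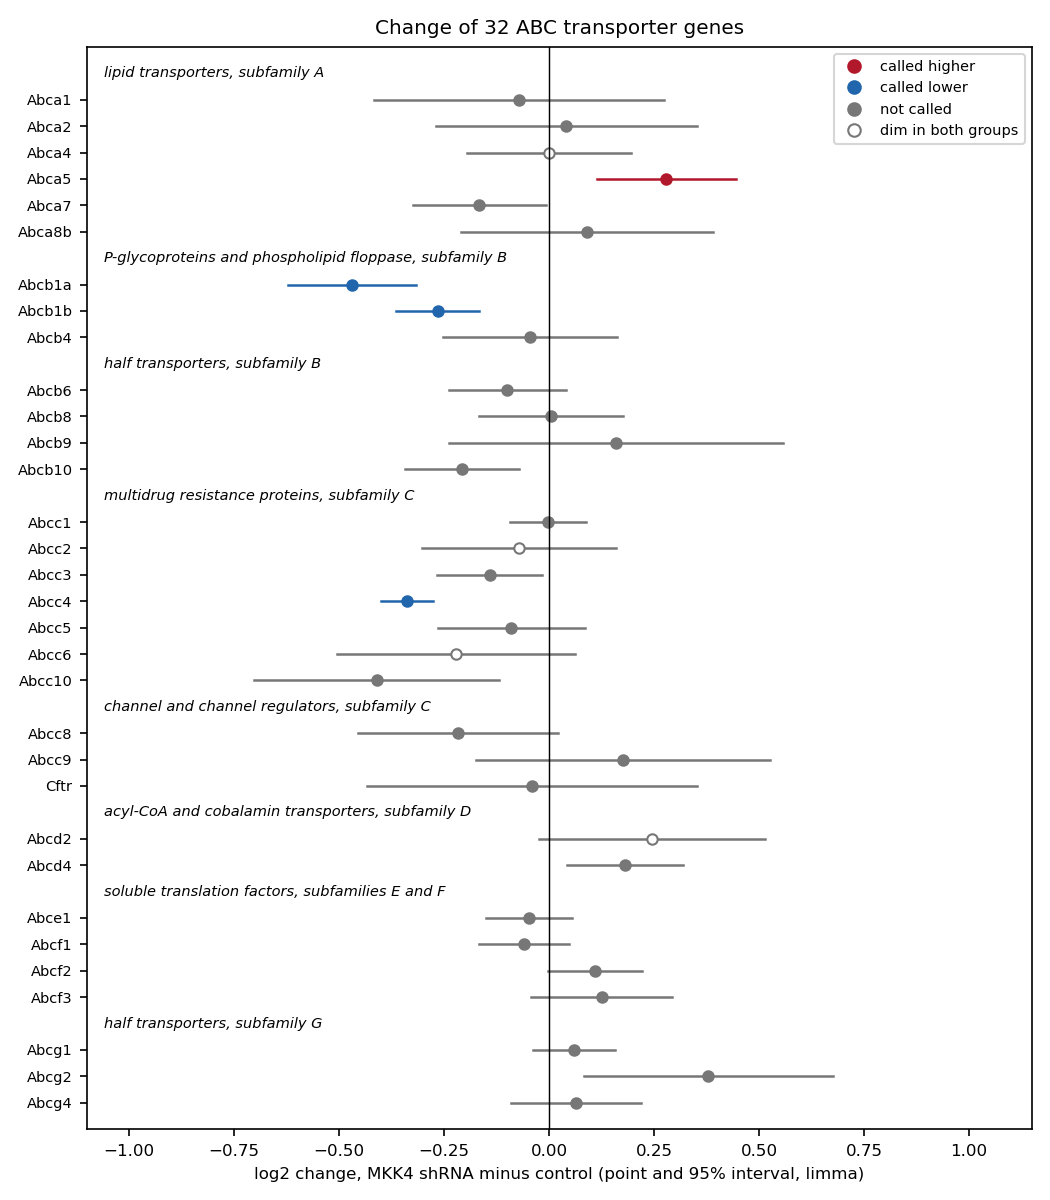
Log2 change (MKK4 shRNA minus control, horizontal axis) of each of the 32 genes with its 95% limma interval, grouped by role; blue and red mark genes called lower and higher, open circles genes that were dim in both groups. Abcb1a, Abcb1b and Abcc4 lie left of 0 at -0.47, -0.27 and -0.34, and Abca5 lies right of it at 0.28.

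The P-glycoprotein genes lie side by side with the phospholipid transporter gene Abcb4 on mouse chromosome 5. The 250 bases before each of these 3 annotated starts are shown because the 3 genes are neighbours, and those before Abcc4 because it is the other exporter that fell. The sequences are RefSeq's on GRCm38.p6, 5′ to 3′ on the gene's strand. Capitals mark every match, on either strand, of 6 motifs: the AP-1 site (TGANTCA), the cyclic AMP response element or CRE (TGACGTCA), the promoter box named for its letters CCAAT, the box of Sp-family factors called the GC box (GGGCGG), the TATA box (TATAAA) and the E-box (CACGTG).
Abcb1a, chr5:8566841-8567090, plus strand: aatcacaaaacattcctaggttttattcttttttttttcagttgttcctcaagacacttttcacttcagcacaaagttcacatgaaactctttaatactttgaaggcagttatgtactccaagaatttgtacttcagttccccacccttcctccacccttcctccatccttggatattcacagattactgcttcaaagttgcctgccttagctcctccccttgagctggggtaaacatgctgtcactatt
Abcb1b, chr5:8797897-8798146, plus strand: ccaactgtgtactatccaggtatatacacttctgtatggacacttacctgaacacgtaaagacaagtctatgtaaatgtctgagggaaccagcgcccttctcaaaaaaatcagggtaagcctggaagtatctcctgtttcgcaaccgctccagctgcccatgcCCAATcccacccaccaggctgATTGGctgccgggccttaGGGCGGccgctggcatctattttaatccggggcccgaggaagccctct
Abcb4, chr5:8893471-8893720, plus strand: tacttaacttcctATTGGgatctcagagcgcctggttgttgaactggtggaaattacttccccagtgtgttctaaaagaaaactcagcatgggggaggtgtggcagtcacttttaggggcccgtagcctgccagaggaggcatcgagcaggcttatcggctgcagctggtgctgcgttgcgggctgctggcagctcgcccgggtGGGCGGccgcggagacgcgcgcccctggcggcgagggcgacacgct
Abcc4, chr14:118706220-118706469, minus strand: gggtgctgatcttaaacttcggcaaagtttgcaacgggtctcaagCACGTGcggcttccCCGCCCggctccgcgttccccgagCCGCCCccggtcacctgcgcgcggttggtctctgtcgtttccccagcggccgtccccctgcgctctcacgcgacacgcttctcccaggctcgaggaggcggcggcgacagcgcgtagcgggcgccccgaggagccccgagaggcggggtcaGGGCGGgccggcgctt

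The upstream windows of the neighbours differed in composition. The Abcb1a window was 40.4% G and C, with 0 CpG pairs and no match to any of the 6 motifs. The Abcb1b window was 52.8% G and C with 9 CpG pairs, and held a pair of CCAAT matches whose first bases lie at -87 and -66, counting the base before the start as -1, and a GC box at -48. The Abcb4 window was 61.6% G and C with 18 CpG pairs, a CCAAT match at -237 and a GC box at -46. The median window of the table had 52.4% G and C and 6 CpG pairs. In global alignments 47.2% of positions were identical between Abcb1a and Abcb1b, 44.4% between Abcb1a and Abcb4 and 46.6% between Abcb1b and Abcb4. Gaps were allowed and no unrelated windows were aligned, so these shares show neither likeness nor divergence of the 3 windows. The Abcc4 window shown had 3 GC boxes and 1 E-box; the table gives a second Abcc4 start, whose window held none of the 6 motifs.

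Windows were found for 23 of the 32 members, 28 windows in all. The letters TGANTCA, with any base at N, stood in for the AP-1 site of Jun and Fos dimers. They occurred in 0 of the 28, against 6.75% of the 32851 windows of the table. Whether 0 of 28 differs from that share was not tested. The CRE motif occurred in 2, those of Abce1 and Abcg2, against 1.55% of all windows. A GC box was present in 19 of 28 member windows and in 32.74% of all windows, and a CCAAT box in 7 and in 33.85%. The TATA letters occurred in 3 and in 12.37%, and the E-box in 3 and in 6.02%. A CCAAT, GC or other match is a match of letters and was not tested for binding.

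Abcb1a encodes one of the mouse P-glycoproteins, the form found in the capillaries of the brain and in the gut. It gave 584.0, 697.3 and 658.1 units in the shRNA cultures and 995.6, 823.2 and 858.2 units in the control cultures. Every shRNA culture lay below every control culture. The means were 646 ± 57.6 and 892 ± 91.1 units (SD, n = 3 each), a log2 change of -0.47 (SE 0.066, 95% interval -0.62 to -0.32, limma adjusted p = 0.00363), or 1.38-fold lower. Its other probe set, tested among all probe sets, gave 398 ± 37.1 units with the shRNA and 609 ± 60.0 units with the control vector (SD, n = 3 each), a log2 change of -0.61 (limma adjusted p = 0.00449). Both probe sets of the gene were therefore lower.

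Abcb1b, the second P-glycoprotein gene, is the form known from the adrenal gland and the pregnant uterus. It gave 2028, 2223 and 2100.5 units in shRNA cultures, against 2707, 2458 and 2399 units in control cultures, again without overlap. The means were 2117 ± 98.4 and 2522 ± 163 units (SD, n = 3 each), a log2 change of -0.27 (SE 0.042, 95% interval -0.36 to -0.17, limma adjusted p = 0.00623), or 1.202-fold lower. Its second probe set read 104 ± 4.39 units in shRNA cultures and 110 ± 11.1 units in control cultures (SD, n = 3 each), with a log2 change of -0.07 that did not pass (limma adjusted p = 0.764). With the probe sets of a gene averaged, Abcb1b gave -0.17 and did not pass either (limma adjusted p = 0.127, the highest of 16 settings). Abcb1a and Abcb1b are close paralogues, and whether a probe set of one also detects the other was not tested.

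Abcb4 encodes the transporter that delivers phosphatidylcholine to bile. It read 184.5, 160.9 and 158.1 units with the shRNA and 171.6, 163.3 and 181.5 units with the control vector, and the groups overlapped. Its log2 change was -0.05, with a 95% interval of -0.25 to 0.16 (limma adjusted p = 0.825), so a fall as large as the Abcb1a estimate lies outside this interval. Within each array the log2 level of Abcb1a relative to Abcb4 averaged 1.84 in shRNA cultures and 2.26 in control cultures, a difference of -0.42. For Abcb1a relative to Abcb1b the difference was -0.20, and for Abcb1b relative to Abcb4 it was -0.22. These 3 pairs were chosen after the values were seen. The exact two-sided permutation p was 0.1, 0.1 and 0.2, or 0.15, 0.15 and 0.2 adjusted over the 3, and 3 against 3 allows no p below 0.1, so a difference in response among the neighbours was not shown. Beyond them on the chromosome, the next measured genes were Rundc3b, with a log2 change of 0.03 (limma adjusted p = 0.837), on the Abcb1a side and the peroxisomal carnitine transferase gene Crot, with -0.13 (limma adjusted p = 0.414), on the Abcb4 side.

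**Figure D2:**
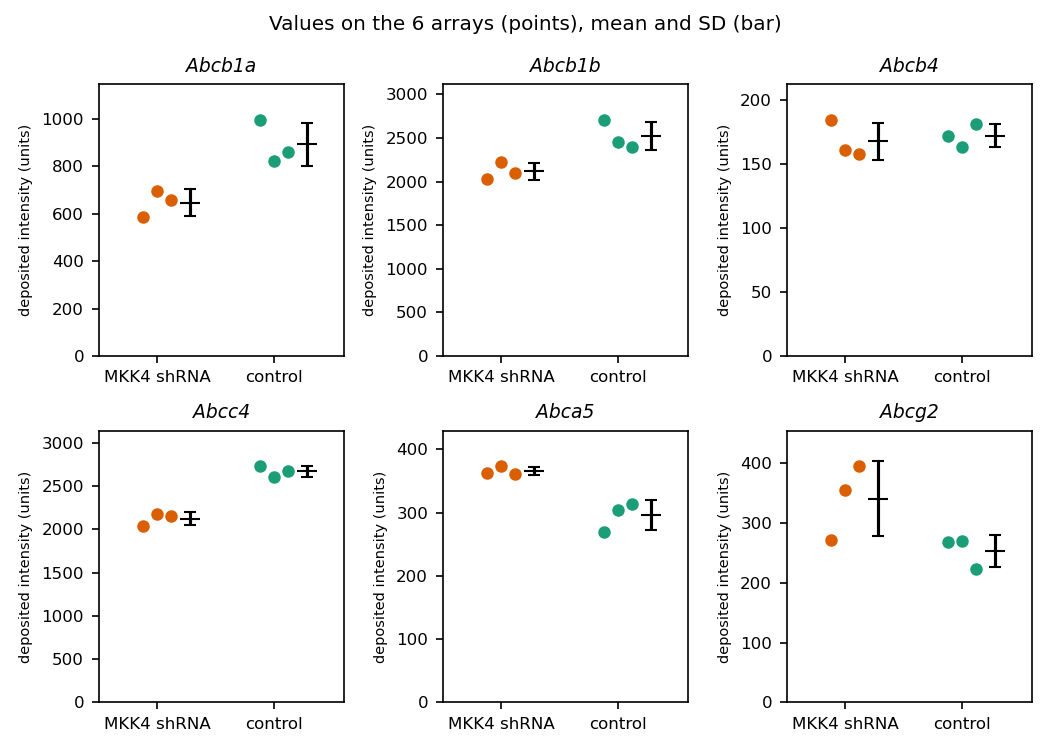
Deposited intensity in units (vertical axes from 0) on each of the 3 MKK4 shRNA arrays, left, and 3 control arrays, right, for 6 genes; points are arrays and bars the mean ± SD. Abcb1a, Abcb1b and Abcc4 are lower and Abca5 higher in every shRNA culture, Abcb4 overlaps, and Abcg2 ranges from 271.4 to 394.2 units among shRNA cultures.

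The multidrug resistance proteins of subfamily C export organic anions, among them conjugates of glutathione and glucuronic acid. Among 7 members, 1 fell, none rose and 6 were not called. The one that fell, Abcc4 (MRP4), exports cyclic nucleotides and prostaglandin E2. It gave 2042, 2174 and 2155 units in the shRNA cultures and 2725, 2606 and 2668 units in the control cultures. The lowest control culture lay far above the highest shRNA culture, by several times the SD of either group. The means were 2124 ± 71.4 and 2667 ± 59.5 units (SD, n = 3 each), a log2 change of -0.34 (SE 0.027, 95% interval -0.40 to -0.28, limma adjusted p = 0.000306), or 1.27-fold lower. Abcc4 has 1 probe set, so no second reading of the gene is at hand. Of its nearest measured neighbours on chromosome 14, Sox21 had a log2 change of 0.08 (limma adjusted p = 0.242) and Cldn10 was dim. Beyond Cldn10, Dzip1 averaged 72.5 units with the shRNA and 94.2 units with the control vector. Its log2 change of -0.34, as large as that of Abcc4, did not pass (limma adjusted p = 0.208).

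Abcc1 (MRP1), the exporter of glutathione conjugates and leukotriene C4, read 2397, 2526 and 2673 units with the shRNA and 2516, 2568 and 2441 units with the control vector. The groups overlapped almost wholly. Its log2 change was 0.00 with a 95% interval of -0.09 to 0.09 (limma adjusted p = 0.986), and its other probe set gave 0.08. Abcc3 (MRP3), a basolateral exporter of glucuronides and bile acids, read 1604, 1827 and 1689 units in shRNA cultures and 1769, 1961 and 1884 units in control cultures, with overlap. Its log2 change of -0.14 did not pass (limma adjusted p = 0.152), except without control replicate 1, where it was -0.20 (limma adjusted p = 0.0401). Abcc5 (MRP5), another exporter of cyclic nucleotides, averaged 784 ± 59.7 and 826 ± 20.8 units (SD, n = 3 each) in shRNA and control cultures on its kept probe set. That gave a log2 change of -0.09, and its 9 other probe sets ran from -0.22 to 0.19, none called.

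The remaining members of this group were dim or near it. Abcc10 (MRP7) read 26.9, 34.5 and 29.9 units in shRNA cultures and 38.8, 46.6 and 52.7 units in control cultures. The groups did not overlap, but the shRNA values lie within the range of the trpnX controls. The log2 change of -0.41 (95% interval -0.70 to -0.12) did not pass (limma adjusted p = 0.081). Abcc2 (MRP2), which exports bilirubin glucuronides into bile, was dim at 14.4 ± 2.04 and 15.98 ± 1.33 units (SD, n = 3 each) in shRNA and control cultures. Abcc6, whose loss causes ectopic calcification, was dim at 2.38 ± 1.56 and 5.43 ± 2.49 units (SD, n = 3 each).

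Subfamily A moves lipids. Among 6 members, 1 was called higher and none lower. Abca5, which encodes a lysosomal member, gave 363.2, 373.0 and 361.3 units in shRNA cultures and 268.6, 304.1 and 313.7 units in control cultures. The shRNA cultures agreed closely and all lay above the control cultures. The means were 366 ± 6.28 and 295 ± 23.7 units (SD, n = 3 each), a log2 change of 0.28 (SE 0.072, 95% interval 0.11 to 0.45, limma adjusted p = 0.0429), or 1.21-fold higher. This call was lost in 10 of 16 other settings. It was lost whichever of the 6 arrays was left out (0.21 to 0.33, limma adjusted p from 0.0549 to 0.124). It was also lost with chromosome centring, which subtracts the median change of a gene's chromosome (0.06 for chromosome 11), at 0.22 (limma adjusted p = 0.105). Tested among all probe sets, the kept Abca5 probe set did not pass either (limma adjusted p = 0.0627). The other Abca5 probe set was dim at 29.9 and 24.0 units in shRNA and control cultures, overlapped and was not called. The neighbour of Abca5 on the chromosome is Map2k6, the gene of the p38 activator MKK6, which averaged 129 units with the shRNA and 74.5 units with the control vector, a log2 change of 0.66 (limma adjusted p = 0.00812). On its other side the next measured gene, Abca6, had a log2 change of 0.20 that did not pass (limma adjusted p = 0.381).

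Abca1, which loads cholesterol and phospholipid onto apolipoprotein A-I, read 92.6, 60.5 and 59.3 units in shRNA cultures and 78.6, 69.3 and 73.8 units in control cultures. The groups overlapped, and the log2 change was -0.07 (95% interval -0.42 to 0.27, limma adjusted p = 0.836). Abca7, a phospholipid transporter linked to phagocytosis, read 275.2, 273.3 and 267.2 units with the shRNA and 305.4, 286.6 and 324.1 units with the control vector. These did not overlap, but the log2 change of -0.17 did not pass (limma adjusted p = 0.184). Abca2, an endolysosomal lipid transporter, gave 147 ± 6.71 and 143 ± 28.1 units, and Abca8b gave 70.7 ± 2.53 and 65.6 ± 12.2 units, in shRNA and control cultures (SD, n = 3 each); neither passed. Abca4, the retinoid transporter of photoreceptors, was dim.

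A further 4 members of subfamily B, which pair up to form a transporter in mitochondria, lysosomes or other membranes, include none that passed the limma test, and 1, Abcb10, had an unadjusted p under 0.05. Abcb10, a protein of the inner mitochondrial membrane that takes part in haem synthesis, came closest. It gave 660.0, 683.6 and 691.2 units in shRNA cultures and 718.8, 813.8 and 786.6 units in control cultures. The groups did not overlap, and the log2 change was -0.21 (95% interval -0.34 to -0.07, limma adjusted p = 0.063). It passed in 2 of 16 other settings, without genes of below-median intensity (-0.21, limma adjusted p = 0.0209) and without control replicate 1 (-0.27, limma adjusted p = 0.0179), while a dimmer probe set at 83.2 and 89.2 units in shRNA and control cultures gave -0.09. Abcb6, linked to porphyrin transport, gave 408 ± 28.1 and 432 ± 16.1 units, and Abcb8, a mitochondrial transporter linked to iron export, 276 ± 24.9 and 272 ± 14.8 units, in shRNA and control cultures (SD, n = 3 each). Abcb9, a lysosomal peptide transporter, gave 65.3 ± 10.98 and 57.2 ± 13.5 units (SD, n = 3 each). Their log2 changes were -0.10, 0.00 and 0.16.

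In subfamily G, whose proteins also pair up, 3 members were measured and none was called by limma, with 1, Abcg2, at an unadjusted p under 0.05. Abcg2, which encodes the breast cancer resistance protein, an exporter of drugs, urate and porphyrins, gave 271.4, 355.1 and 394.2 units in shRNA cultures and 268.3, 269.7 and 222.5 units in control cultures. The groups did not overlap, but the first shRNA culture lay within 2 units of the highest control culture while the other two lay well above. The log2 change of 0.38 had a 95% interval of 0.08 to 0.68 and did not pass (limma adjusted p = 0.108). Without shRNA replicate 1 it was 0.51 and passed (limma adjusted p = 0.0356), and without shRNA replicate 3 it was 0.27 (limma adjusted p = 0.293). Abcg1, which passes cholesterol to high-density lipoprotein, gave 1797 ± 37.0 and 1715 ± 40.1 units (SD, n = 3 each) in shRNA and control cultures. These deposited values did not overlap, but the normalized log2 values did (10.75 in shRNA culture 2, 10.77 in control culture 1). The log2 change was 0.06 (95% interval -0.04 to 0.16, limma adjusted p = 0.465). On the other Abcg1 probe set it was -0.03, also not called. Abcg4, a close relative of Abcg1 in the brain, gave 486 ± 17.1 and 460 ± 19.8 units (SD, n = 3 each), a log2 change of 0.06.

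None of the channel genes, the subfamily D genes or the soluble ABC proteins passed the limma test, and of these 9 members 1, Abcd4, had an unadjusted p under 0.05. Cftr, the chloride channel of airway and gut epithelium, read 53.0, 29.1 and 34.4 units in shRNA cultures and 32.8, 46.1 and 40.5 units in control cultures, around the highest trpnX value. Abcc8, the sulphonylurea receptor SUR1, gave 135 ± 15.7 and 159 ± 13.3 units (SD, n = 3 each) in shRNA and control cultures, a log2 change of -0.22 (limma adjusted p = 0.252). The other Abcc8 probe set was dim at 38.3 and 29.9 units, and its log2 change of 0.26, opposite in sign, was not called. Abcc9, the receptor SUR2 of muscle and vessels, gave a log2 change of 0.18 on its kept probe set and -0.55 on another at 44.0 and 71.4 units in shRNA and control cultures, and neither was called. Its probe sets thus differ in sign.

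In subfamily D, Abcd4, which takes part in the release of cobalamin from lysosomes, read 372.1, 413.6 and 423.0 units in shRNA cultures and 338.5, 349.6 and 356.5 units in control cultures. The groups did not overlap, and the log2 change was 0.18 (95% interval 0.04 to 0.32, limma adjusted p = 0.101), with 0.11 on the other probe set. Abcd2, a peroxisomal transporter of very long-chain fatty acids, was dim on all 4 of its probe sets. Abce1, which splits terminated ribosomes, gave 2896 ± 121 and 2968 ± 212 units in shRNA and control cultures (SD, n = 3 each), a log2 change of -0.05 (95% interval -0.15 to 0.05). Abcf1, an initiation factor partner, gave 1643 ± 101 and 1712 ± 76.9 units (SD, n = 3 each), a log2 change of -0.06. A dimmer Abcf1 probe set varied widely among the shRNA arrays. It read 26.4, 69.6 and 117.7 units in shRNA cultures and 24.5, 20.1 and 38.6 units in control cultures, and was not called (limma adjusted p = 0.309). Abcf2 gave 736 ± 9.85 and 669 ± 23.3 units without overlap (SD, n = 3 each), a log2 change of 0.11 (limma adjusted p = 0.221). Abcf3 gave a log2 change of 0.13 on its kept probe set. The other Abcf3 probe sets gave -0.14 and -0.06, opposite in sign, and none was called.

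**Figure D3:**
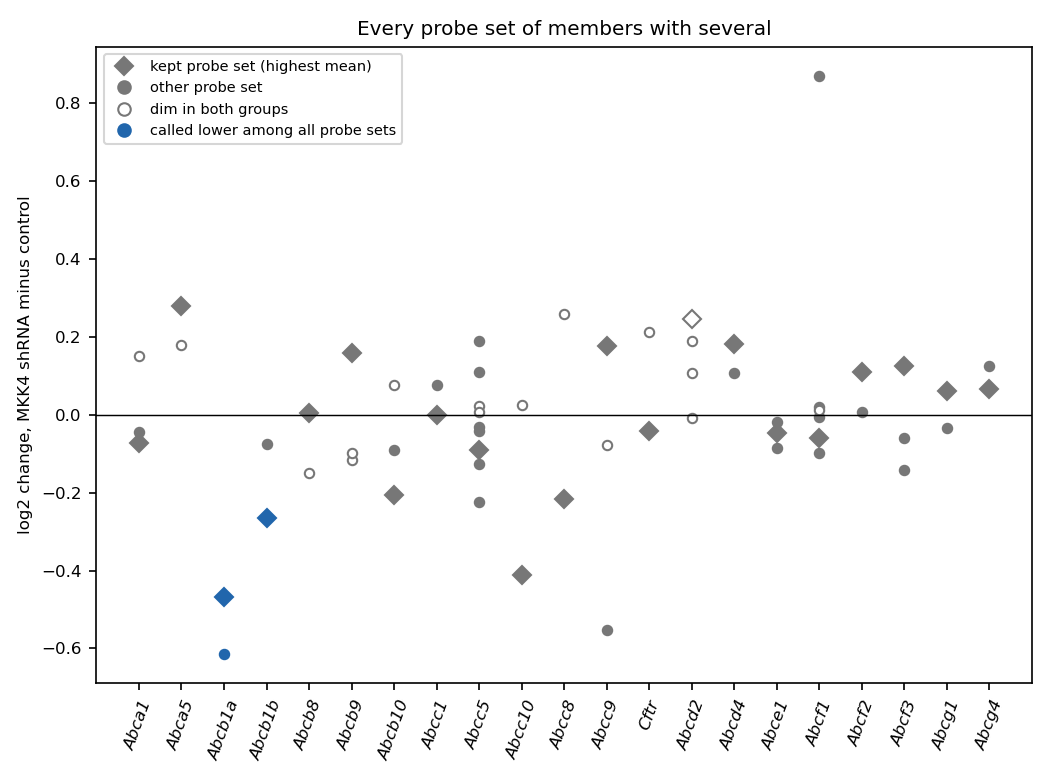
Log2 change (MKK4 shRNA minus control, vertical axis) of every probe set of the 21 members with several; diamonds are the kept probe sets, circles the others, open symbols dim in both groups, and blue marks those called among all probe sets. Both Abcb1a probe sets are called, the Abcb1b probe sets differ (-0.27 and -0.07), and the highest point, 0.87, is the uncalled dimmer Abcf1 probe set.

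In all, 11 of the 32 members had groups that did not overlap in deposited units, 5 with the shRNA cultures higher and 6 with them lower. Overlap was judged before normalization, unlike the log2 changes, and the normalized values of Abcg1 did overlap. The share below is on deposited units for members and all genes alike. The 11 members are 34.4%, against 26.0% of all genes. When each probe set was tested on its own, 4 of the 73 member probe sets were called, both of Abcb1a and 1 each of Abcb1b and Abcc4, where 6.37% of all probe sets were.

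**Figure D4:**
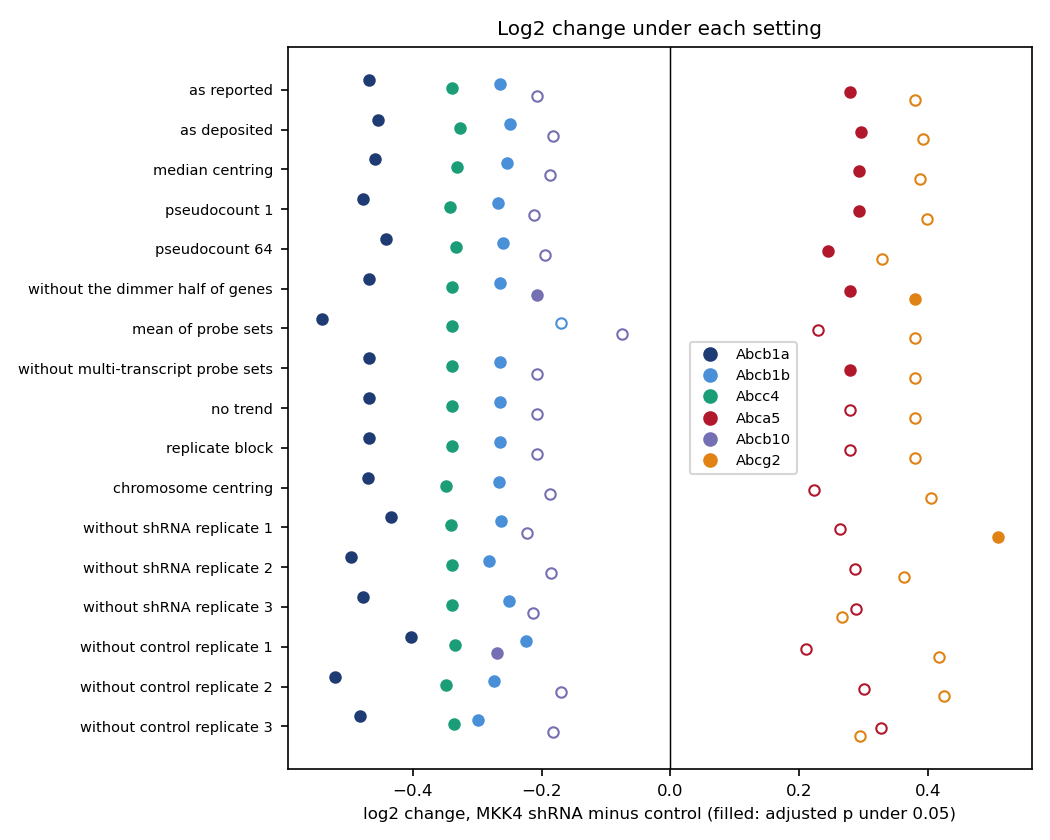
Log2 change (MKK4 shRNA minus control, horizontal axis) of 6 genes under each setting, filled where the adjusted p is under 0.05. Abcb1a and Abcc4 stay filled in every setting and Abcb1b in all but the mean of probe sets. Abca5, Abcb10 and Abcg2 are filled in some settings and open in others, each keeping its sign.

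Genes that work with ABC proteins were examined through 9 lists, of which 178 of 206 genes were analysed here. Of these, 14 rose and 15 fell. The split depends on the scaling: with the values as deposited 12 rose and 5 fell, and with centred medians 15 rose and 7 fell. Among 16 further ABC genes 1 fell, Abca3, the phospholipid transporter of lung surfactant (-0.17, limma adjusted p = 0.0465), with a list median of -0.05. This call held in 3 of 16 other settings. The peroxisomal Abcd3 gave 0.00, and the peptide transporter genes Tap1 and Tap2 gave 0.18 and -0.14, none of which passed.

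Of 29 genes of glutathione synthesis and conjugation, whose products the subfamily C proteins export, 4 rose and 3 fell, a median log2 change of 0.03. Ugt2b34, a glucuronosyltransferase gene, had 383 ± 32.3 units in shRNA cultures and 105 ± 8.20 units in control cultures (SD, n = 3 each), a log2 change of 1.71 (limma adjusted p = 3.71e-05). Gstm5, a glutathione transferase gene, had 492 ± 46.7 and 763 ± 9.22 units (SD, n = 3 each), a log2 change of -0.64 (limma adjusted p = 0.000383). The quinone reductase gene Nqo1 (0.54) and the microsomal transferase gene Mgst1 (0.49) also rose, but held in 6 and 11 of 15 other settings. Mgst1 gave -0.13 when probe sets shared between transcripts were omitted.

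Of 27 carriers of organic ions and peptides 1 rose, Slco3a1 (0.41), and 2 fell. The latter were Slc22a2 (-0.44), an organic cation transporter near the trpnX level with the shRNA, and the prostaglandin carrier gene Slco2a1 (-0.23). These calls held in 16 of 16, 4 of 15 and 5 of 16 other settings. Of 20 genes of haem and iron-sulphur metabolism and transport 4 rose and 2 fell. Examples were Isca1 (0.35), an iron-sulphur assembly gene, Tmem14c (0.30), a mitochondrial porphyrin carrier gene, Slc48a1 (0.27), a haem transporter gene, and Nfs1 (-0.26), the cysteine desulphurase gene. Of 21 peroxisomal genes 1 rose and 4 fell. Among them were Scp2 (-0.32), a sterol carrier gene, Acaa1a (-0.28), a thiolase gene, Cat (-0.26), the catalase gene, and Mmachc (0.24), a cobalamin-processing gene. Scp2, Cat and Mmachc held in 7, 9 and 8 of 16 other settings.

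Of 16 genes of sterol efflux and the LXR receptors, 1 rose, Srebf1 (0.28), a transcription factor of lipid synthesis and a target of LXR, and 1 fell, the coactivator gene Ncoa6 (-0.29). Of 14 regulators of drug and stress responses 2 rose, Pparg (0.79) and Hif1a (0.19), and none fell; Hif1a gave 0.10 at its smallest and held in 13 of 16 other settings. Of 16 partners of the ABC channels 1 rose, the chloride cotransporter gene Slc12a2 (0.53), and 2 fell, the bicarbonate cotransporter gene Slc4a4 (-0.34) and the calcium-activated chloride channel gene Ano1 (-0.13, 3 of 16 other settings). None of 19 genes of translation initiation and ribosome recycling was called by limma, the processes in which Abce1 and the Abcf genes work, and 8 had an unadjusted p under 0.05, beside the 24.1% of all genes at that threshold. The shares called in the other lists ran from 6.25% to 30.0%, beside the 11.8% of all genes.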

How the data were processed

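Per the labels' protocols, biotin-labelled RNA was hybridised to Affymetrix arrays. The deposited values are linear intensities, 1 per probe set; how the authors summarised, background-corrected and normalized them is not given in the sources used here. Values of log2(intensity + 16) were quantile-normalized over all probe sets (limma 3.58.1, R 4.3.3), and 64 control probe sets were then left out. By the platform's annotation 34945 probe sets name 1 gene, 932 name more than 1 and 9160 name none; 18193 genes resulted, 18031 of them found by Entrez number in RefSeq's table (GRCm38.p6).

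All genes were fitted with limma (lmFit, eBayes with trend), group as the single term, and Benjamini-Hochberg adjustment at 0.05. Per-array values, means and SDs in the text are of deposited intensities. Named partner genes are at most 4 called genes of each list, the largest by log2 change. Members and lists were chosen with earlier results of these data known. Names were matched by symbol, Entrez number or synonym; genes not matched were not analysed here. No deposited column was left without a sample.

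Alternatives were the values as deposited, centred medians, pseudocounts of 1 and 64, omitting genes of below-median intensity, averaging probe sets, omitting probe sets shared between transcripts, no trend, a replicate block, chromosome centring, testing every probe set, and leaving out each array. On simulated data (18193 genes, independent normal noise), 50 genes were changed at each size. There limma recovered 18% at a log2 change of 0.25, 38% at 0.35, 68% at 0.5 and 98% at 1, and 1.77% of calls were false. Far fewer genes were changed there than the 2143 called in these data, and the adjusted threshold depends on that number. These shares therefore do not carry over to the real comparison.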

Additional observations from a re-analysis of the deposited data

How the results depend on the processing

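Abcb1a (-0.54 to -0.40) and Abcc4 (-0.35 to -0.33) kept their direction and their call in all 16 other settings, and Abcb1b (-0.30 to -0.17) in 15. Of the 32 members, 25 were called in no setting. The count of members called lower, 3, ran from 3 to 5 when 1 array was left out; the 5, without control replicate 1, added Abcb10 and Abcc3. The count called higher, 1, was 0 with the replicate block, with no trend, with chromosome centring, with averaged probe sets and with every probe set tested, and 2 without genes of below-median intensity. It ran from 0 to 1 when 1 array was left out, and the 1, without shRNA replicate 1, was Abcg2 rather than Abca5. Deviations of same-numbered samples correlated at -0.03, -0.01 and -0.11, so no shared deviation of same-numbered cultures was seen. This does not show that the cultures were handled unpaired. The replicate block left 3 members lower.

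Among partner genes, the count called higher, 14, was 8 with no trend, 7 without probe sets shared between transcripts, and 9 to 13 with 1 array left out. The count called lower, 15, was 5 as deposited, 7 with centred medians, 8 without probe sets shared between transcripts, 6 with no trend, 5 with the replicate block, 8 with chromosome centring, and 4 to 9 with 1 array left out. Mgst1 reversed to -0.13 without probe sets shared between transcripts. Of 23 named partner genes, 9 were called in every setting. The causes were not tested. With 3 arrays a group, changes of the size seen here can be missed, so members that did not pass are not shown to be unchanged.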
